A study of Homo sapiens with 9 samples.

Results

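Selenoprotein mRNAs carry an in-frame UGA codon, one of the stop codons, that is read as the amino acid selenocysteine. Here 10 human selenoprotein genes, chosen by their symbols, were followed through depletion of nonsense-mediated decay factors: GPX1, GPX4, TXNRD1, TXNRD2, SEPHS2, SEPW1, SELM, SELT, SEP15 and SEPN1. They were 10 of 49622 gene symbols in the deposited isoform table and held 103 of its 199618 assembled isoforms, and all 10 also had a locus in the deposited gene table of 22266 loci. Later annotations call SEPW1, SELM, SELT, SEP15 and SEPN1 by the symbols SELENOW, SELENOM, SELENOT, SELENOF and SELENON.

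The RNA came from HEK293 b-39 cells, a human embryonic kidney line of the Flp-In T-Rex type with a β-globin reporter (PTC39) integrated at its Flp-In locus, and every library carried that reporter. Cells were treated with siRNA against UPF1 and XRN1 together, against SMG6 and XRN1 together, against XRN1 alone, or against EGFP as the control. Cytoplasmic RNA was released with digitonin, and its poly(A)+ fraction was sequenced. Each of the 4 conditions had 1 RNA-seq library, so no difference below has a replicate check, a standard deviation or a p-value. Intervals are 95% and cover read-counting error only. No source used here states the selenium supply of the medium.

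Selenocysteine is inserted when a hairpin in the 3′ part of the mRNA, the SECIS element, recruits the protein SECISBP2 and the elongation factor EEFSEC with a dedicated tRNA. Where that fails, the ribosome stops at the UGA, and a stop upstream of an exon junction is the usual trigger of nonsense-mediated decay (NMD). In NMD the helicase UPF1 recognises the stalled termination, the endonuclease SMG6 cuts the mRNA near it, and the 5′-3′ exonuclease XRN1 degrades the downstream piece. In mammalian cells and tissues the mRNAs of some selenoproteins, GPX1 the best known, are lost through this route when selenium is scarce, while others, such as GPX4, are held more steadily.

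The sequences around the UGA of 7 of these mRNAs are shown with the UGA (TGA in DNA letters) in capitals and without exon junctions, whose distances follow below. They were read from the GENCODE release 29 transcripts on GRCh38, on the coding strand, 5′ to 3′. The windows of TXNRD1 and TXNRD2 end at the regular stop codon.
GPX1: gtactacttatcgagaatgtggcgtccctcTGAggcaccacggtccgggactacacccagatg
GPX4: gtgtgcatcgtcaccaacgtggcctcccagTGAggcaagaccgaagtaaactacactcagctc
SEPW1: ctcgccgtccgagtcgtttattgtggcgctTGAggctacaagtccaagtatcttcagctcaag
SELT: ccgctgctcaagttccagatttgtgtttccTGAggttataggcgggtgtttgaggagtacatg
SEPHS2: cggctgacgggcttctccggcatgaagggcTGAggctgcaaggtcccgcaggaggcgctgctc
TXNRD1: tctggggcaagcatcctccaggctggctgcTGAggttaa
TXNRD2: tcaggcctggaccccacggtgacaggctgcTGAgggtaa
The base after the first UGA was G in 7 of the 10 genes, these 7, and C, T or A in 1 gene each. The T is that of SEPN1, whose second UGA is followed by G.

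In 7 of the genes the codon stands in the body of the frame with an exon junction downstream. The UGA of GPX1 lies at chr3:49358132-49358134 on the minus strand, in exon 1 of 2, as codon 49 of 203, and is 105 nt upstream of the only exon junction. GPX4 has its UGA at chr19:1105403-1105405 on the plus strand, in exon 3 of 7, as codon 73 of 197 and 342 nt upstream of the last junction. In SEPW1 it is codon 13 of 87, at chr19:47780732-47780734 on the plus strand in exon 2 of 6, with 243 nt to the last junction. In SELT it is codon 49 of 195, at chr3:150622392-150622394 on the plus strand in exon 2 of 6, with 470 nt to the last junction. SELM (codon 48 of 145, 135 nt) and SEP15 (codon 96 of 165, 78 nt) also have the codon in the body of the frame. SEPN1 has a pair of UGAs in the transcript used here, SELENON-202, at codons 127 and 462 of 590. They lie 1221 and 216 nt upstream of the last junction. The largest assembled SEPN1 isoform had another transcript, SELENON-201 with 556 codons, as its nearest reference.

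The other 3 genes are built differently. SEPHS2 has a single exon and so no junction, with its UGA at codon 60 of 448 (chr16:30445548-30445550, minus strand), and it ends in a regular TGA stop. TXNRD1 has its UGA at codon 648 of 649, at chr12:104348413-104348415 on the plus strand in the last of 17 exons. TXNRD2 also has it at the last codon but one, 523 of 524, at chr22:19877111-19877113 on the minus strand, but in exon 17 of 18, 71 nt upstream of the last junction. The regular stop codon of TXNRD2 is itself 65 nt upstream of that junction, so its annotated mRNA would leave a junction behind at either stop. In all, 8 of 10 genes had a junction more than 50 nt after the UGA.

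**Figure D1:**
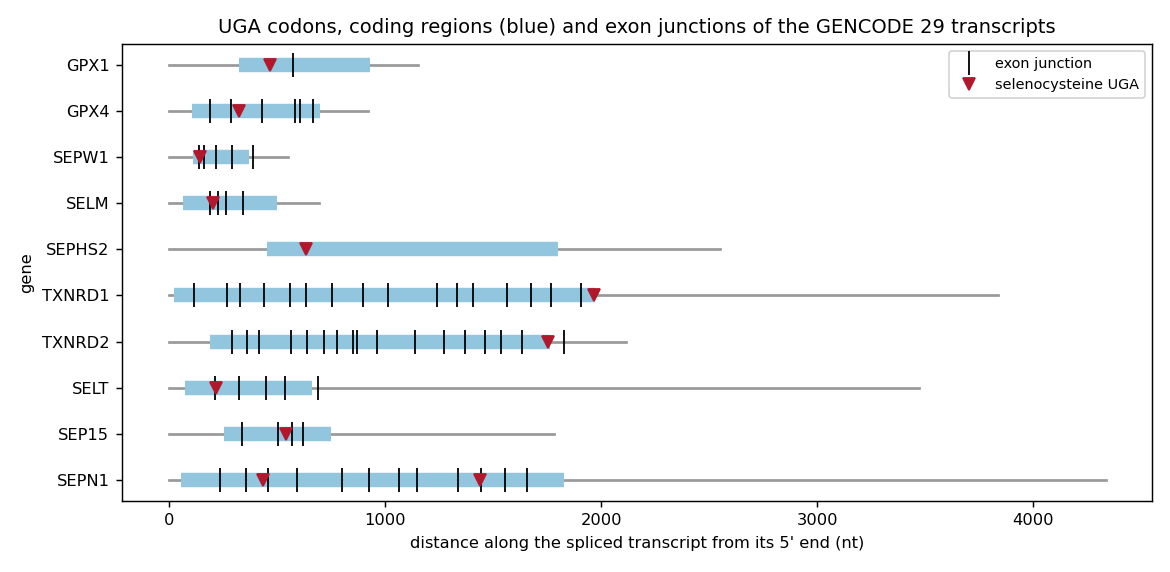
Spliced GENCODE 29 transcripts of the 10 selenoprotein genes, drawn to scale in nt from the 5′ end, with coding regions as blue bars, exon junctions as black ticks and selenocysteine UGA codons as red triangles. SEPHS2 has no junction, TXNRD1 and TXNRD2 have the UGA at the last codon but one, and the other 7 genes have it earlier, with a junction downstream.

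Levels between genes were compared on the deposited FPKM, which is scaled to transcript length and library size. GPX4, the peroxidase that reduces phospholipid hydroperoxides in membranes, had the highest level, at 208 FPKM in the UPF1/XRN1, 293 in the SMG6/XRN1, 309 in the XRN1 and 304 in the control library. SEP15, a protein of the endoplasmic reticulum that binds the glycoprotein folding sensor UGGT1, followed with 101, 119, 122 and 104 FPKM in the same order of libraries. TXNRD1, the cytosolic thioredoxin reductase, had 67.8, 65.9, 59.9 and 62.7 FPKM, and SEPHS2, the selenophosphate synthetase that makes the selenium donor for all selenoproteins, had 57.5, 61.8, 59.7 and 74.1 FPKM. These ranges overlapped, so the order of TXNRD1 and SEPHS2 was not separated by the libraries.

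GPX1, the cytosolic glutathione peroxidase, had 25.7, 27.3, 31.2 and 29.6 FPKM in the UPF1/XRN1, SMG6/XRN1, XRN1 and control libraries. SEPW1, a small protein of thioredoxin-like fold, had 28.7, 29.8, 19.0 and 22.9 FPKM. SELT, a thioredoxin-like protein of the endoplasmic reticulum membrane, had 22.0, 23.9, 21.8 and 20.2 FPKM. The range of SEPW1 overlapped those of both neighbours, whereas each GPX1 value was above each SELT value. Lower still were the SEPN1 locus with 15.4, 14.3, 12.7 and 11.3 FPKM, which it shares with MTFR1L, and TXNRD2, the mitochondrial thioredoxin reductase, with 10.7, 11.02, 8.81 and 9.35 FPKM. SELM, a further thioredoxin-like protein of the endoplasmic reticulum, was lowest in each library at 2.93, 3.09, 3.42 and 2.87 FPKM. The ranges of SELT, SEPN1, TXNRD2 and SELM did not overlap each other.

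**Figure D2:**
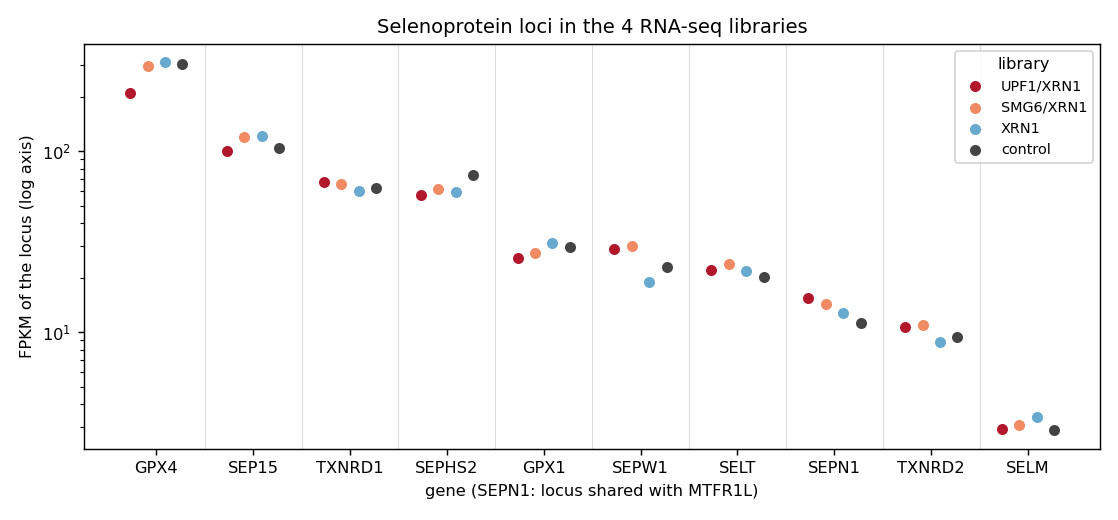
FPKM of the 10 selenoprotein loci on a log axis, 1 point for each of the 4 RNA-seq libraries, ordered by mean level. GPX4 stands above and SELM below all others in each library, and the libraries of most genes lie close together.

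For comparisons between libraries the isoform signal, which the authors normalised to spike-in RNA, was summed over all isoforms of a symbol. On this scale 1 read was worth 3.72, 4.25, 4.0497 and 3.85 units in the UPF1/XRN1, SMG6/XRN1, XRN1 and control libraries, whose totals corresponded to 35983500, 34650000, 32970700 and 31476500 reads. Changes are log2 ratios after adding 1 unit to each signal. The comparisons share libraries: XRN1 is on top in one and beneath in others, and the control is beneath in 3 of the 5, so they are not independent of each other. The median of all 15095 genes with a mean summed signal of at least 100 was itself above 0, at 0.20 for XRN1 over control, 0.22 for SMG6/XRN1 over XRN1, 0.10 for UPF1/XRN1 over XRN1, 0.41 for SMG6/XRN1 over control and 0.29 for UPF1/XRN1 over control. In bulk RNA a large change in few cells and a small change in all cannot be told apart.

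The targeted mRNAs were read as a check of the labels, and they ran with them only in part. XRN1 had a summed signal of 6897, 7724 and 6135 in the libraries labelled UPF1/XRN1, SMG6/XRN1 and XRN1, against 6864 in the control. SMG6 had 4148 in the library labelled UPF1/XRN1 and 2857 in that labelled SMG6/XRN1, against 2908 with XRN1 alone and 2201 in the control. UPF1 had 4650 in the library labelled UPF1/XRN1 and 7822 in that labelled SMG6/XRN1, against 7314 with XRN1 alone and 4236 in the control. UPF1 mRNA was thus lower in the library labelled UPF1/XRN1 than in XRN1, with a ratio of 0.636 (0.591 to 0.684), but not lower than in the control, and SMG6 mRNA in the library labelled SMG6/XRN1 was higher than in the control. The β-globin gene HBB, with which the reporter shares its sequence, had 41339, 19436 and 11262 in the UPF1/XRN1, SMG6/XRN1 and XRN1 libraries, against 6745 in the control. Of the markers expected in HEK293 cells, KRT8, KRT18, VIM and EPCAM had signals of 9883 to 124028 in every library. Over the whole marker list, however, 1 of 12 tested genes was above 0 for UPF1/XRN1 over XRN1, beside 59.4% of all genes. The median log2 change of the list was -0.38. NEFL, CDH2, NEFM and PAX2 had ratios of 0.578, 0.655, 0.534 and 0.481 in that comparison, and the part of this shift in the selenoprotein values was not tested. Of other cell types, the leukocyte gene PTPRC and the endothelial gene CDH5 stayed at or below 19.3, and the hepatocyte gene ALB at or below 119. The fibroblast gene COL1A1 had 204 to 324, and the erythroid genes HBA1 and HBA2 had 245 to 367 and 74.7 to 157. These were at the level of the lower HEK293 markers LHX1 (164 to 340), NEFM (119 to 304) and PAX2 (81.8 to 170), so the list separates cell types only in part.

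None of the 10 selenoprotein genes differed by 2-fold in any of the 5 comparisons. Of all genes, 9.99% passed 2-fold upwards and 1.17% downwards for XRN1 over control. For SMG6/XRN1 over XRN1 these shares were 4.6% and 0.298%, and for UPF1/XRN1 over XRN1 6.31% and 1.85%. Over the control, 19.1% of all genes were 2-fold higher and 0.404% lower in SMG6/XRN1, and 18.1% were higher and 1.4% lower in UPF1/XRN1. In FPKM, over 12164 loci with a mean of at least 1 FPKM, the count was also 0 of 10, beside 2.52% higher and 0.534% lower for UPF1/XRN1 over XRN1, 1.36% and 0.173% for SMG6/XRN1 over XRN1, 4.11% and 0.37% for XRN1 over control, 10.2% and 0.575% for UPF1/XRN1 over control and 9.3% and 0.263% for SMG6/XRN1 over control. Beside backgrounds of this size, 0 of 10 is not read as a result about these genes.

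The middle of the group lay below the middle of all genes in each comparison. The selenoprotein median was -0.02 for UPF1/XRN1 over XRN1, 0.14 for SMG6/XRN1 over XRN1 and -0.01 for XRN1 over control. In these, 5, 8 and 4 of the 10 genes were above 0, beside 59.4%, 77.6% and 69.5% of all genes. Over the control the selenoprotein median was 0.07 for UPF1/XRN1 and 0.17 for SMG6/XRN1. There 6 and 8 of 10 genes were above 0, beside 69.3% and 82.9% of all genes. At a 1.5-fold limit 1 gene was higher and 0 lower in each comparison: SEPW1 in both co-depletions over XRN1, where 17.1% of all genes passed upwards and 7.17% downwards in UPF1/XRN1 and 16.2% and 1.42% in SMG6/XRN1, and SEPN1 in each comparison over control. There 32.9% of all genes passed upwards and 5.56% downwards in UPF1/XRN1, 38% and 1.5% in SMG6/XRN1 and 21.9% and 3.67% in XRN1.

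**Figure D3:**
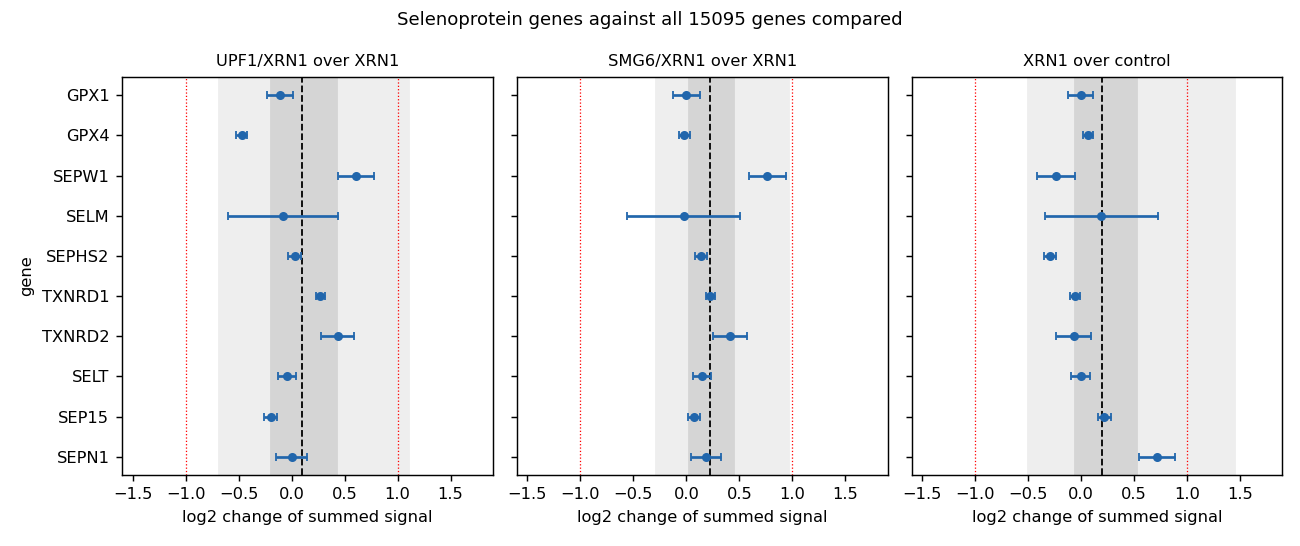
Log2 change of the summed signal of each selenoprotein gene in 3 comparisons, with 95% counting intervals. Grey bands span the middle 50% and 90% of all 15095 genes, the dashed line is their median and the dotted lines mark 2-fold: no selenoprotein gene passes 2-fold, and SEPW1 stands highest in both co-depletion panels.

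The glutathione peroxidases, whose mRNAs both have an early UGA, were not higher after either co-depletion. GPX1 had a summed signal of 4051 in UPF1/XRN1, 4379 in SMG6/XRN1, 4378 in XRN1 and 4394 in the control, or 1089, 1030, 1081 and 1140 reads. Its level was nearly the same in the last 3 libraries and slightly lower in UPF1/XRN1. The ratio was 0.925 (0.850 to 1.01) for UPF1/XRN1 over XRN1, 1.0002 (0.917 to 1.09) for SMG6/XRN1 over XRN1 and 0.996 (0.916 to 1.08) for XRN1 over control. These intervals end below 1.1, so at this depth a larger increase of total GPX1 mRNA is outside counting error, while variation between cultures was not measured.

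GPX4 was lower in 1 library. Its summed signal was 19142 in UPF1/XRN1, 26161 in SMG6/XRN1, 26513 in XRN1 and 25311 in the control, so the UPF1/XRN1 library stood apart and the other 3 lay close together. The ratio was 0.722 (0.696 to 0.749) for UPF1/XRN1 over XRN1, a log2 change of -0.47, and 0.987 (0.953 to 1.02) for SMG6/XRN1 over XRN1. In FPKM the same gene was lower by a log2 of -0.57 in UPF1/XRN1 over XRN1, and 10.4% of all genes had a lower change than GPX4 in summed signal.

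Both thioredoxin reductases, which have the UGA at the last codon but one, were higher in both co-depletions by less than 1.5-fold. TXNRD1 had 40129.6 in UPF1/XRN1, 38900.5 in SMG6/XRN1, 33275 in XRN1 and 34619.5 in the control. The ratio over XRN1 was 1.21 (1.17 to 1.24) in UPF1/XRN1 and 1.17 (1.13 to 1.20) in SMG6/XRN1. TXNRD2 had 3151 in UPF1/XRN1, 3099 in SMG6/XRN1, 2333 in XRN1 and 2447 in the control, with both co-depletions above both other libraries. Its ratio over XRN1 was 1.35 (1.21 to 1.504) in UPF1/XRN1 and 1.33 (1.19 to 1.48) in SMG6/XRN1. After subtracting the median gene, the log2 change over XRN1 was 0.17 in UPF1/XRN1 and 0.003 in SMG6/XRN1 for TXNRD1, and 0.33 and 0.19 for TXNRD2.

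SEPHS2, the synthetase that is itself a selenoprotein and whose GENCODE 29 transcript has no exon junction, was highest in the control. Its signal was 18514 in UPF1/XRN1, 20009.8 in SMG6/XRN1, 18159 in XRN1 and 22200.4 in the control. The ratio was 0.818 (0.786 to 0.851) for XRN1 over control, and 1.02 (0.979 to 1.06) and 1.10 (1.06 to 1.15) for UPF1/XRN1 and SMG6/XRN1 over XRN1.

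Among the small redox proteins SEPW1 differed most between libraries that share XRN1 depletion. Its signal was 2783 in UPF1/XRN1, 3103 in SMG6/XRN1, 1826 in XRN1 and 2155 in the control, or 748, 730, 451 and 559 reads, so both co-depletions lay above both other libraries. The ratio was 1.52 (1.35 to 1.72) for UPF1/XRN1 over XRN1, 1.70 (1.51 to 1.92) for SMG6/XRN1 over XRN1 and 0.848 (0.747 to 0.961) for XRN1 over control. The log2 changes over XRN1 were 0.61 and 0.76 in summed signal and 0.57 and 0.62 in FPKM. Part of this contrast lies in the low XRN1 library, and over the control the ratios were 1.29 (1.16 to 1.44) in UPF1/XRN1 and 1.44 (1.29 to 1.61) in SMG6/XRN1.

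As whole genes, the highest library was 1.14 times the lowest for SELT and 1.22 times for SEP15. SELT had 8407 in UPF1/XRN1, 9573 in SMG6/XRN1, 8645 in XRN1 and 8679.62 in the control, with ratios of 0.972 (0.916 to 1.03), 1.11 (1.04 to 1.18) and 0.996 (0.938 to 1.06) for UPF1/XRN1 over XRN1, SMG6/XRN1 over XRN1 and XRN1 over control. SEP15 had 16200 in UPF1/XRN1, 19495 in SMG6/XRN1, 18564 in XRN1 and 15972 in the control. Its ratio was 0.873 (0.837 to 0.910) for UPF1/XRN1 over XRN1 and 1.16 (1.11 to 1.21) for XRN1 over control, where the median gene changed by nearly as much. SELM rested on 66, 60, 64 and 59 reads in the same order of libraries, and its ratios had wide intervals, 0.661 to 1.36 for UPF1/XRN1 over XRN1 and 0.680 to 1.42 for SMG6/XRN1 over XRN1, so differences within those bounds were not detectable at this depth.

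SEPN1, a glycoprotein of the endoplasmic reticulum that takes part in calcium handling and muscle maintenance, had 3079.7 in UPF1/XRN1, 3493 in SMG6/XRN1 and 3079 in XRN1, against 1874 in the control. All 3 depletions lay above the control, with ratios of 1.64 (1.47 to 1.84), 1.86 (1.67 to 2.09) and 1.64 (1.46 to 1.84), and the ratio of UPF1/XRN1 over XRN1 was 1.0002 (0.906 to 1.11). This value depends on how reads were divided with MTFR1L, a gene assembled into the same locus, of whose signal SEPN1 isoforms held 63.3%. Summed over the whole locus the log2 change was 0.51 for UPF1/XRN1, 0.59 for SMG6/XRN1 and 0.37 for XRN1 over control, and in FPKM of the locus 0.42, 0.32 and 0.16, where SEPN1 isoforms alone gave 0.72, 0.90 and 0.72.

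Grouped by the place of the codon, the pair with a UGA at the end and the 8 genes with an earlier one were set side by side without a test. For UPF1/XRN1 over XRN1 the median log2 change was 0.35 for TXNRD1 and TXNRD2 and -0.06 for the other 8, and for SMG6/XRN1 over XRN1 it was 0.32 and 0.11. The 8 genes ranged from -0.47 (GPX4) to 0.61 (SEPW1) and from -0.02 (SELM) to 0.76 (SEPW1), which enclosed both thioredoxin reductases. A second grouping, added after the values were seen, asked whether a junction lies more than 50 nt after the UGA in the GENCODE 29 transcript. The 8 genes with one had medians of -0.06 and 0.11, and the pair without one, SEPHS2 and TXNRD1, 0.15 and 0.18.

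Isoforms were then read one by one. The authors assembled transcripts from the reads and compared each with a reference annotation, where "=" marks a full match of the intron chain and "j" an isoform that shares at least one junction and has others of its own. Of the 103 selenoprotein isoforms, 80 had signal in at least 1 library, 23 had none, and 37 had a mean signal of at least 100. In 9 of the 10 genes the most abundant isoform was of class j and held 45.0% (SEPW1) to 97.6% (SEPN1) of the gene's summed signal, and in SEPHS2 it was a full match with 96.1%. Of the 39 GENCODE 29 transcripts of these genes with an annotated selenocysteine codon, 4 were named as the nearest reference of an isoform, all of TXNRD2, against 18 of their 32 protein-coding transcripts without one. The exon structures of the class j isoforms were not used here, so whether they include the UGA cannot be read from these values. The main SEPHS2 isoform matches a transcript that is not in GENCODE 29, so its exon junctions were not read either.

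The counts of changed isoforms were near or below the share over all isoforms and are no result about the selenoprotein genes. Of the 37 isoforms above the minimum, 8 were at least 2-fold higher and 3 lower for UPF1/XRN1 over XRN1, where 21.9% and 9.15% of all 42642 isoforms above that minimum were. For SMG6/XRN1 over XRN1 the counts were 3 and 1, beside 20.1% and 6.19%, and for XRN1 over control 4 and 4, beside 21.3% and 8.52%. Over the control, 6 and 2 isoforms passed in UPF1/XRN1, beside 31.4% and 7.91%, and 7 and 2 in SMG6/XRN1, beside 31.8% and 5.63%. An isoform's signal is an estimate of how reads are divided between overlapping models, and the intervals do not include the error of that division.

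The authors marked 28034 of the 122816 isoforms with signal (22.8%) as NMD isoforms, and the mark is exactly met by a signal more than 2 times the control in both co-depletions. It was therefore made from these libraries, and the following shares are a description. Of the 80 selenoprotein isoforms with signal, 14 (17.5%) carried it: 4 of SEPW1, 3 of SELM, 3 of TXNRD1, 2 of SELT, 1 of GPX4 and 1 of TXNRD2. GPX1, SEPHS2, SEP15 and SEPN1 had 0.

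SELT had the largest such share on a deep count. Its marked isoforms held 25.9% (24.0 to 27.7) of the gene's signal in UPF1/XRN1, 22.9% (21.1 to 24.7) in SMG6/XRN1, 15.2% (13.7 to 16.8) in XRN1 and 9.40% (8.24 to 10.7) in the control, with exact Clopper-Pearson intervals. Both are full matches to annotated transcripts whose exons cover the UGA but whose annotated frame of 137 codons does not. The match to SELENOT-203 had 838 in UPF1/XRN1, 813 in SMG6/XRN1, 300.1 in XRN1 and 197 in the control, and its ratio over XRN1 was 2.79 (2.14 to 3.68) in UPF1/XRN1 and 2.71 (2.06 to 3.59) in SMG6/XRN1. The match to SELENOT-205 had 1335, 1376, 1017 and 619 in the same order of libraries, with ratios over XRN1 of 1.31 (1.11 to 1.55) and 1.35 (1.15 to 1.60). The largest isoform, of class j, had 6212 in UPF1/XRN1, 7384 in SMG6/XRN1, 7193 in XRN1 and 7706 in the control. Its ratio over XRN1 was 0.864 (0.807 to 0.924) in UPF1/XRN1 and 1.03 (0.960 to 1.10) in SMG6/XRN1. The mark selected the other pair for being high in both co-depletions, so the contrast between them and this isoform is fixed by that choice.

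SEPW1 was split more evenly. Its largest isoform, of class j, had 917 in UPF1/XRN1, 1524 in SMG6/XRN1, 816 in XRN1 and 1185 in the control, with a ratio over XRN1 of 1.12 (0.929 to 1.36) in UPF1/XRN1 and 1.87 (1.57 to 2.23) in SMG6/XRN1. The full match to SELENOW-213, annotated as a processed transcript without a frame and without the exon of the UGA, had 898, 802, 496 and 547. For that isoform the ratio over XRN1 was 1.81 (1.45 to 2.27) in UPF1/XRN1 and 1.62 (1.29 to 2.06) in SMG6/XRN1. The full match to SELENOW-201, annotated as protein coding but without the exon of the UGA, had 222, 261, 269 and 128. Its ratio over XRN1 was 0.824 (0.571 to 1.18) in UPF1/XRN1 and 0.969 (0.664 to 1.37) in SMG6/XRN1. Another class j isoform had 364, 208, 176 and 209, with ratios over XRN1 of 2.07 (1.45 to 3.07) and 1.18 (0.778 to 1.85). Full matches to transcripts annotated as non-coding together held 38.5% (35.0 to 42.1) of SEPW1 in UPF1/XRN1, 30.0% (26.7 to 33.5) in SMG6/XRN1, 27.9% (23.8 to 32.3) in XRN1 and 26.6% (22.9 to 30.3) in the control.

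**Figure D4:**
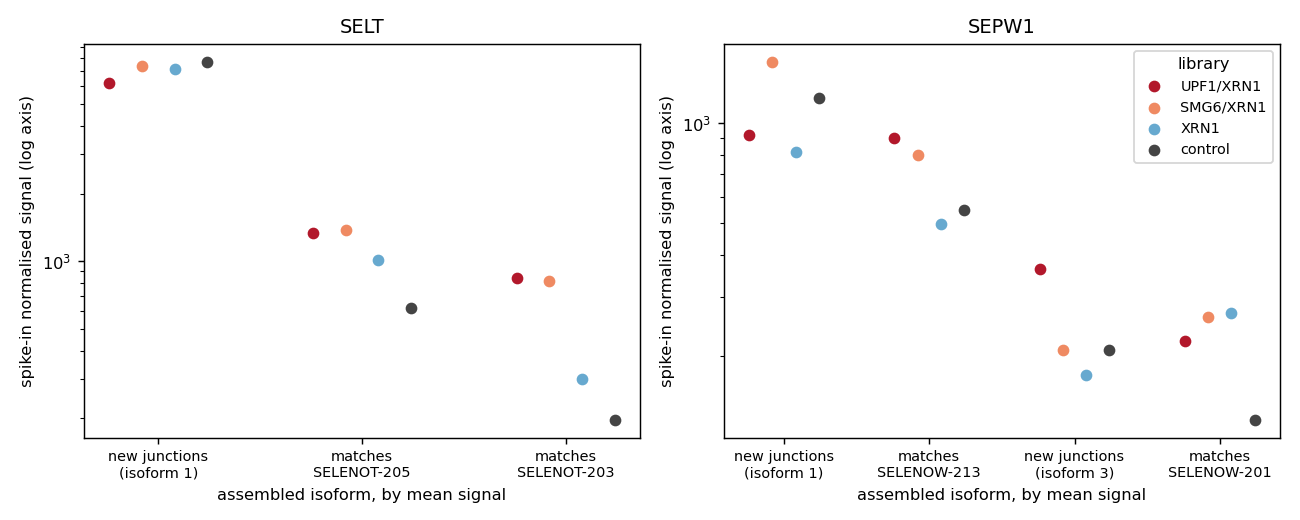
Spike-in normalised signal on a log axis of the SELT and SEPW1 isoforms with a mean of at least 100, 1 point for each library. The SELENOT-205 and SELENOT-203 matches are higher in both co-depletions than in XRN1 and control, and the largest SELT isoform is not. The SELENOW-213 match is likewise higher in both co-depletions, whereas the SELENOW-201 match is not higher than in XRN1.

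In the thioredoxin reductases and GPX4 such isoforms were minor. Marked TXNRD1 isoforms held 6.86% in UPF1/XRN1, 5.92% in SMG6/XRN1, 4.37% in XRN1 and 1.41% in the control, mostly 1 isoform of class j with 1783, 2113, 1296 and 417 in that order. TXNRD1 also had an isoform that fully matches a transcript annotated as an NMD target, TXNRD1-217, with 870.4, 1609.7, 1448 and 1033. It was not higher in UPF1/XRN1 than in XRN1, where its ratio was 0.601 (0.508 to 0.712). Over the 2512 isoforms with a mean signal of at least 100 that fully match such annotated NMD targets, the median log2 change was 0.72 for UPF1/XRN1 over XRN1 and 0.64 for SMG6/XRN1 over XRN1.

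Another 3 selenoprotein isoforms that fully match annotated NMD targets had mean signals under the minimum, and they were named after their values were seen. SELENOT-206 had 2.89 in UPF1/XRN1 and 0 in SMG6/XRN1, against 136 in XRN1 and 0 in the control, so it was seen almost only in XRN1. SELENOF-204 of SEP15 had 0, 4.47, 4.33 and 16.2 in the UPF1/XRN1, SMG6/XRN1, XRN1 and control libraries, which is at most a few reads. TXNRD2-209, with a mean of 99.2, had 271 in UPF1/XRN1, 66.9 in SMG6/XRN1, 26.8 in XRN1 and 32.3 in the control, or 8.598% (6.82 to 10.7), 2.16% (1.26 to 3.54), 1.15% (0.490 to 2.49) and 1.32% (0.545 to 2.47) of the gene. The UPF1/XRN1 library stood alone, and its ratio over XRN1 was 10.1 (4.42 to 24.7). This isoform is also the marked one of TXNRD2, so it was selected for being high in both co-depletions. In GPX4 the marked isoform had 446 in UPF1/XRN1, 1076 in SMG6/XRN1 and 568 in XRN1, and was at 0 in the control, where 0 reads allow a share of up to 0.0562% of the gene. It held 2.33%, 4.11% and 2.14% of GPX4 in the 3 depletions, while the gene's more abundant pair of isoforms, with 11079 and 6686 in UPF1/XRN1 against 14609 and 10037 in XRN1, carried the lower total. SELM had 34.6% (23.5 to 47.6), 13.6% (5.94 to 24.6), 7.14% (2.59 to 17.3) and 0% in marked isoforms, on 59 to 66 reads.

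**Figure D5:**
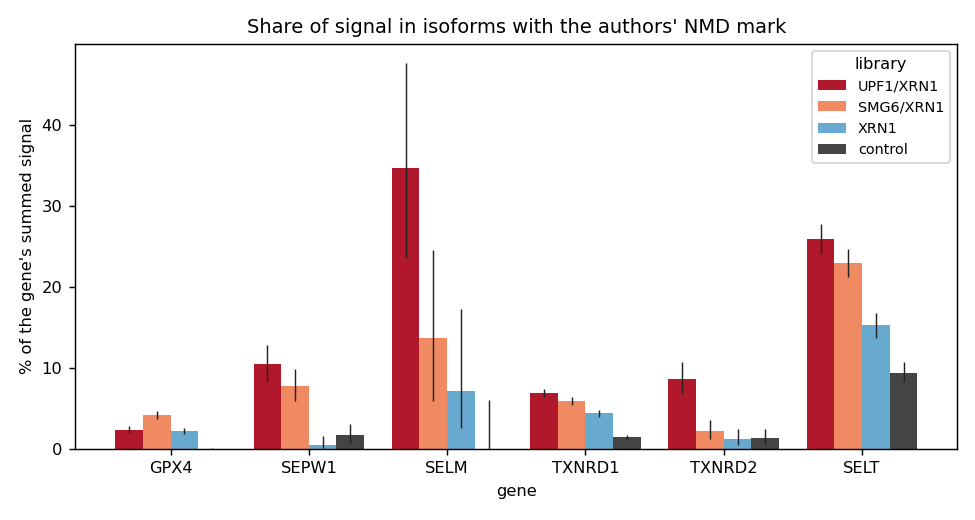
Share of each gene's summed signal in isoforms with the authors' NMD mark, in percent from 0, with exact 95% Clopper-Pearson intervals, for the 6 selenoprotein genes that have such isoforms. SELT has 25.9% in UPF1/XRN1 and 9.40% in the control, TXNRD2 stands out in UPF1/XRN1 alone, and the SELM bars have wide intervals.

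Other selenoprotein genes gave a point of comparison. Of 15 listed, 8 passed the minimum of 100, with medians of 0.09, 0.11 and 0.12 for UPF1/XRN1 over XRN1, SMG6/XRN1 over XRN1 and XRN1 over control, and 2, 2 and 1 of the 8 were 2-fold higher and 0 lower, beside 6.31%, 4.6% and 9.99% of all genes that were higher. SELO, a mitochondrial AMPylase with its selenocysteine near the end of the protein, had 5449.6 in UPF1/XRN1, 5279.8 in SMG6/XRN1, 2535 in XRN1 and 1152 in the control, with log2 changes of 1.10, 1.06 and 1.14. Its locus had 6.01, 5.99, 4.85 and 2.08 FPKM, so on that measure it was not 2-fold higher over XRN1 in either co-depletion. C11orf31, the gene of selenoprotein H, a nucleolar redox protein, had 209.7, 262, 96.2 and 98.9 in the same order of libraries, with log2 changes of 1.12 and 1.44 over XRN1 and -0.04 for XRN1 over control. Its locus had 87.6, 83.3, 65.4 and 61.6 FPKM, where neither co-depletion was 2-fold above XRN1. In the control GPX1 had 29.6 FPKM with a signal of 4394, so the C11orf31 locus value may hold more than that gene. Which transcripts add to the FPKM of the SELO and C11orf31 loci was not tested. EPT1, which makes ethanolamine phospholipids, changed by -0.28, 0.08 and 0.84 in the 3 comparisons, and VIMP, a membrane protein of the endoplasmic reticulum, by 0.34, 0.12 and 0.49. GPX3, SELK, SEPP1 and MSRB1 lay within 0.28 of 0 in all 3 comparisons.

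The machinery of selenocysteine insertion was read from 16 genes, all above the minimum. Its median log2 change was 0.10 for UPF1/XRN1 over XRN1, 0.20 for SMG6/XRN1 over XRN1 and 0.29 for XRN1 over control, and 1, 0 and 1 genes were 2-fold higher and 0 lower, beside the same shares of all genes. TRNAU1AP, a protein bound to the selenocysteine tRNA, had 6577 in UPF1/XRN1, 5420.1 in SMG6/XRN1, 2960.3 in XRN1 and 1784.5 in the control, a log2 change of 1.15 for UPF1/XRN1 over XRN1. Its locus had 21.9, 18.2, 11.1 and 6.94 FPKM in the same order, where UPF1/XRN1 was just under 2-fold above XRN1. PSTK, the kinase that acts on that tRNA, changed by 0.68, 0.45 and 0.50 in the 3 comparisons, and LRP8, a receptor for selenoprotein P, by 1.03 for XRN1 over control. Among the genes named for their role, SECISBP2, which binds the SECIS element, changed by 0.23, 0.33 and 0.55 and the elongation factor EEFSEC by 0.20, 0.28 and 0.44. The lowest change in the list was that of CELF1, an RNA-binding protein, at -0.75 for XRN1 over control.

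Peroxiredoxins and other relatives that use cysteine in place of selenocysteine have no UGA to read through. Of 13 listed genes 12 passed the minimum, and their medians were -0.20 for UPF1/XRN1 over XRN1, -0.10 for SMG6/XRN1 over XRN1 and 0.08 for XRN1 over control. None differed by 2-fold in these 3 comparisons. Of all genes, 6.31%, 4.6% and 9.99% were 2-fold higher and 1.85%, 0.298% and 1.17% lower, so that count is no result about the relatives. For UPF1/XRN1 over XRN1, 1 of the 12 was above 0, beside 59.4% of all genes, with PRDX4 at -0.65 and PRDX3 at -0.56. The selenoprotein median lay between these relatives and all genes in both co-depletions over XRN1.

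SEPW1 had the widest range of FPKM among the selenoprotein genes that hold at least 80% of their locus, and the 3 loci nearest to its profile over the 4 libraries were IMMP1L, MOB2 and EPC2, out of 7879 loci with a mean of at least 5 FPKM. Their distances on the centred log2 scale were 0.0183, 0.0390 and 0.0516. IMMP1L had 10.3 FPKM in UPF1/XRN1, 10.7 in SMG6/XRN1, 6.70 in XRN1 and 8.19 in the control.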

How the data were processed

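RNA-seq of 4 libraries was used; 4 libraries of 5′-monophosphate ends and 1 CAGE library were not analysed here. The submitters' processing notes name the build hg19 and, as tools, Cufflinks 2.0.2, TopHat2 2.0.6, Bowtie 0.12.7 and CASAVA 1.8.2. The authors deposited FPKM per assembled locus, a spike-in normalised signal per assembled isoform, and identifiers with class codes. No source used here says how spike-ins entered the signal. Values of low loci (at most 20 reads) were whole multiples, within 0.01, of a library's smallest step in 82.8% to 85.3% of cases, so that step was taken as 1 read.

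Signals were summed per symbol with Python 3.11.15, pandas 2.3.3, numpy 2.4.6 and scipy 1.17.1. Ratio intervals are exact conditional binomial on estimated reads. Changes were called at 2-fold; genes and isoforms needed a mean signal of 100, loci a mean of 1 FPKM. The steps were tested on simulated data. Named were all members, some but not all of the member isoforms above the minimum, and extreme or 2-fold genes of each list. The 3 nearest profiles and a few list genes were also named, the latter for their role. Others are marked. Members and lists were chosen with earlier results of these data known. UGA positions were planned from RefSeq proteins and taken instead from GENCODE 29 (GRCh38), matched by transcript ID only; no GRCh38 position was joined to hg19.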

Additional observations from a re-analysis of the deposited data

How the results depend on the processing

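No paired analysis was possible because each condition had 1 library, and for the same reason no library could be left out. With a pseudocount of 20, gene FPKM, library-total scaling or centring on the median gene, 0 of the 10 genes passed 2-fold in any comparison; of the 50 gene changes, 0, 9, 11 and 18 changed sign, all with a main size of at most 0.34. Centring moved the median of SMG6/XRN1 over control to -0.24. At 1.5-fold, 1 gene was higher in each of the 5 comparisons. Using only "=" isoforms (6 genes), the median of UPF1/XRN1 over XRN1 was 0.31, and 9 of 30 changes changed sign, up to a main size of 0.41. The cause of the sign changes was not tested. On this setting 1 gene, SELT, was 2-fold higher over the control in each co-depletion. Its "=" signal was 2195 in UPF1/XRN1 and 2189 in SMG6/XRN1, of which isoforms with the NMD mark held 2173 and 2189. That mark already asks for more than 2 times the control, so this call is no separate result. Isoform counts (higher and lower) depended on the minimum signal. With no minimum (80 isoforms) they were 25 and 16 for UPF1/XRN1 over XRN1, 19 and 14 for SMG6/XRN1 over XRN1, 18 and 14 for XRN1 over control, 25 and 13 for UPF1/XRN1 over control and 22 and 10 for SMG6/XRN1 over control. With a minimum of 400 (26 isoforms), 2 and 1 passed for UPF1/XRN1 over XRN1, 2 and 2 for XRN1 over control, 0 were lower for SMG6/XRN1 over XRN1, and 1 was lower in each co-depletion over control. Shares over all isoforms were taken only at the minimum of 100, so these isoform counts are no result about the selenoprotein genes. Counts over all genes for UPF1/XRN1 over XRN1 were 952 higher and 280 lower, 6251 and 2445 with no minimum, and 317 and 67 at a mean of 1000; for SMG6/XRN1 over XRN1 694 and 45, 5097 and 2140, and 182 and 9; for XRN1 over control 1508 and 176, 4663 and 3512, and 635 and 28. SELM rests on about 60 reads.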

Other observations

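Enzymes that work beside the selenoproteins were read from lists chosen for their roles. Of 26 genes of the glutathione and thioredoxin systems, 1 was 2-fold higher for UPF1/XRN1 over XRN1, 0 for SMG6/XRN1 over XRN1 and 4 for XRN1 over control, and 0 were lower; of all genes 6.31%, 4.6% and 9.99% were higher. TXNIP, the inhibitor of thioredoxin, had a summed signal of 7276 in UPF1/XRN1, 4987 in SMG6/XRN1, 3179 in XRN1 and 1569 in the control. UGGT1, the folding sensor that SEP15 binds, had 9579, 10844.5 and 9322 in the UPF1/XRN1, SMG6/XRN1 and XRN1 libraries, against 2744 in the control, a log2 change of 1.76 for XRN1 over control. UGGT2 and the cystine importer subunit SLC7A11 changed by 1.20 and 1.24 in that comparison. The reductase GSR, which restores glutathione, had 18811, 22569, 22427 and 25426 in the same order of libraries.

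Of 18 targets of the oxidative-stress factor NRF2, 7 of which the other lists also hold, 2 were 2-fold higher for UPF1/XRN1 over XRN1 (SQSTM1 at 1.08 and OSGIN1 at 1.01), 0 for SMG6/XRN1 over XRN1 and 3 for XRN1 over control (OSGIN1, ABCC1 and SLC7A11), beside the same shares of all genes. The SQSTM1 locus had 38.5, 25.4, 19.1 and 24.3 FPKM in UPF1/XRN1, SMG6/XRN1, XRN1 and control, which is near the 2-fold limit for UPF1/XRN1 over XRN1. OSGIN1 had 214, 136, 106 and 23.1 in UPF1/XRN1, SMG6/XRN1, XRN1 and control, with a ratio of 2.02 (1.27 to 3.39) for UPF1/XRN1 over XRN1 and 4.59 (1.83 to 13.5) for XRN1 over control. Its locus had 3.38, 2.45, 3.84 and 2.77 FPKM in the same order, with UPF1/XRN1 below XRN1. In the control SELM had 2.87 FPKM with a signal of 227, so the locus value may hold more than OSGIN1. Which transcripts add to it was not tested. The list medians were 0.17, 0.10 and 0.06, beside 0.10, 0.22 and 0.20 for all genes.

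In 2 genes, picked after their values were seen, an isoform was near 0 in a library where another isoform of the gene was higher. How reads were divided between them was not tested. In GPX1 a single-exon model had 349.8, 376, 0.226 and 270.3 in UPF1/XRN1, SMG6/XRN1, XRN1 and control, where the full match had 43.4, 3.996, 256 and 13.1. Their sum was 393, 379.65, 256 and 283. In TXNRD1 a class j isoform had 2514 in UPF1/XRN1 and 0, 0 and 1.22 in SMG6/XRN1, XRN1 and control, where the match to TXNRD1-202 had 1.71, 1632.5, 1083 and 2399. Their sum was 2516 in UPF1/XRN1, 1632.5 in SMG6/XRN1, 1083 in XRN1 and 2400.4 in the control.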
